A study of Homo sapiens with 6 samples.

Results

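Genes named ZNF with a number encode zinc finger proteins, most of them of the C2H2 type. The 204 described here are the protein-coding members with a mean of at least 2 FPKM (fragments divided by transcript length and by the library total) in the control libraries. They are 204 of the 413 coding ZNF genes in a table of 29489 genes, or 49.4%. By the same threshold 8441 of 14023 other coding genes, or 60.2%, were expressed. The control values chose the members, so their levels are given as a description. Just inside the threshold lay ZNF7, ZNF551 and ZNF202 at control means between 2.0 and 2.02 FPKM, and just outside ZNF653, ZNF211 and ZNF862 at 1.99, 1.99 and 1.97 FPKM.

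The RNA came from SU-DHL-4, a cell line from a human diffuse large B-cell lymphoma, in 3 samples labelled CON and 3 labelled KD. The labels do not name the target of the knockdown, how it was made or when the cells were harvested. The title of the series names ZHX2, a zinc finger and homeobox protein, and SLC3A2, a subunit of amino acid transporters. ZHX2 was at 38.5 and 36.7 FPKM in CON and 11 and 11 FPKM in KD. Both KD libraries were below both CON libraries (log2 change -1.69, SE 0.040, limma adjusted p = 3.58e-05). SLC3A2 was at 74.9 and 75.5 FPKM in CON and 26.6 and 27.4 FPKM in KD. Replicate 1 of each group equals the mean of replicates 2 and 3 divided by a constant in all 204 members, so values are from replicates 2 and 3 only, 2 libraries a group. All 8 B cell markers listed were at 1 FPKM or more in the 4 libraries, and their summed level was 809 to 819 FPKM in CON and 627 to 639 FPKM in KD. Of 13 listed markers of T and NK cells, myeloid cells and epithelium, 8 had values, and 0 were at 1 FPKM or more in all 4 libraries. The T and NK cell markers summed to 1.3 to 1.8 FPKM in CON and 0.881 to 0.968 FPKM in KD, and the myeloid markers to 0.0502 to 0.0542 FPKM and 0.467 to 0.523 FPKM. Of 3 fibroblast markers with values 2 passed 1 FPKM, with a sum of 4.55 to 5.04 FPKM in CON and 4.44 to 4.52 FPKM in KD. Mitochondrially encoded genes held 25.6% to 25.9% of the summed FPKM in CON and 29.9% to 30.3% in KD. The part of these markers in the results below was not tested. For mitochondrially encoded genes, some results below are also given with library totals that leave them out. These are the summed level, the members as a whole, a list of corepressor and heterochromatin genes and some named genes. Results by level, GC content, position or name family carry no such value.

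A C2H2 finger is a short fold held by a zinc ion, and arrays of fingers can recognise DNA by its sequence. Many ZNF proteins also carry a KRAB domain, which binds the corepressor TRIM28 (KAP1). TRIM28 in turn brings the histone methyltransferase SETDB1 and HP1 proteins, which keep transposable elements and some genes silent. Human KRAB zinc finger genes arose by repeated local duplication and lie in clusters, above all on chromosome 19. Other ZNF proteins are activators, chromatin subunits, RNA-binding proteins or ribosome factors that share little but the name.

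The members were expressed at low levels. Their median over the members was 4.43 and 4.47 FPKM in the CON libraries and 4.24 and 4.28 FPKM in the KD libraries. The median of the CON mean was 4.44 FPKM, against 9.18 FPKM for the other expressed coding genes. Between 2 and 4 FPKM lay 89 members, 37 were at 10 FPKM or more and 10 at 20 FPKM or more. Together the members held 1467 and 1478 FPKM in CON and 1340.2 and 1340.3 FPKM in KD. The summed level was lower in both KD libraries than in both CON libraries, with a ratio of the means of 0.910. With library totals that leave out mitochondrially encoded genes the ratio was 0.947. Fewer cells of a kind and less RNA per cell cannot be told apart in such bulk values. Of coding ZNF genes, 182 were at 2 FPKM or more in both groups, 22 in CON only and 13 in KD only.

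In KD, 83 of the 204 members fell and 41 rose (limma on log2(FPKM + 1), Benjamini-Hochberg adjusted p under 0.05 over 11916 genes). The other 80 did not pass, and 134 had an unadjusted p under 0.05. Among all genes tested 58.6% were called, 31.1% lower and 27.6% higher. Among the 8440 other expressed coding genes tested 62.0% were called, 32.1% lower and 29.8% higher. The members' share of calls, 60.8%, was near that background. The direction was split differently: 40.7% of members were lower and 20.1% higher. The groups did not overlap in 178 members, or 87.3%, against 81.6% of all genes tested and 84.2% of the other coding genes.

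Changes were small in most members. The median log2 change was -0.09, with an interquartile range of 0.53 and an SD across members of 0.42. For the other coding genes, which stood at higher levels, these were -0.01, 0.48 and 0.44. At like levels in CON the interquartile ranges of members and other genes were 0.49 and 0.48 from 2 to 4 FPKM. They were 0.49 and 0.47 from 4 to 8 FPKM and 0.59 and 0.47 from 8 to 16 FPKM. At 16 FPKM or more, with 13 members, they were 0.30 and 0.47. As ratios of mean FPKM, the median fold was 1.45 among the members that fell and 1.40 among those that rose. Of the 124 called members 76 changed by less than 1.5-fold by that ratio, and 7 with values above 0 in KD were past 2-fold, all lower: ZNF594, ZNF572, ZNF785, ZNF691, ZNF17, ZNF749 and ZNF248. On the fitted log2(FPKM + 1) scale ZNF497, ZNF594, ZNF691 and ZNF572 were called past 2-fold, and on neither scale did any member rise that far. Called and past 2-fold on the fitted scale were 5.16% of all genes tested and 2.94% of the other coding genes.

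**Figure D1:**
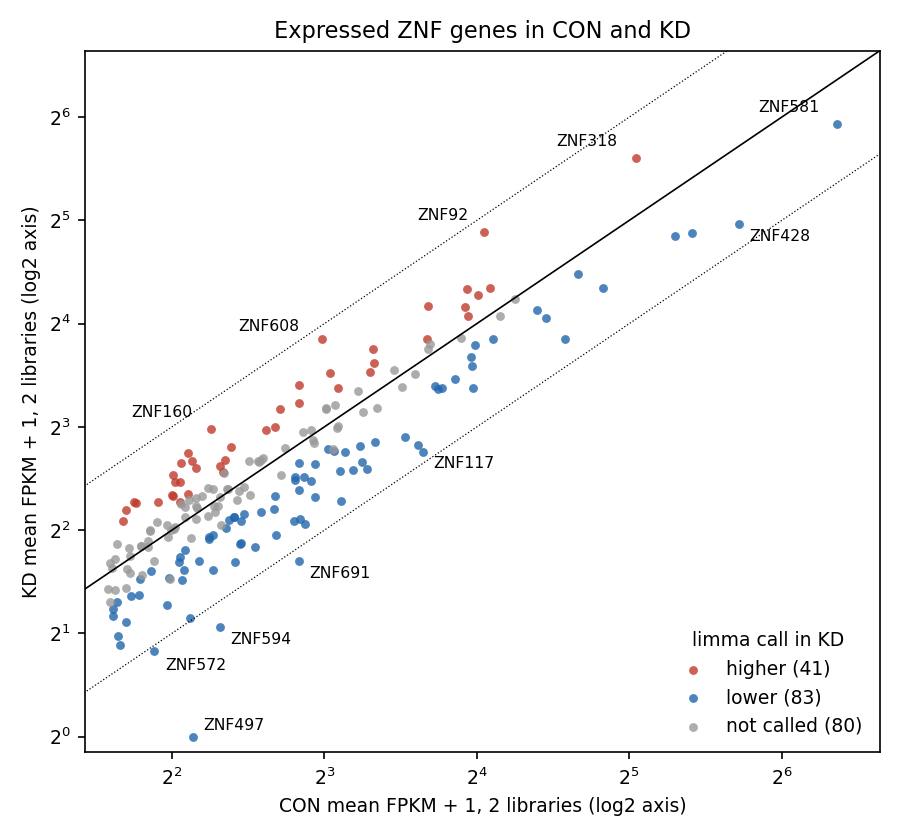
Mean FPKM + 1 of each of the 204 members in CON (x axis) and KD (y axis), 2 libraries each, both axes on a log2 scale; the solid line marks equal levels and the dotted lines a 2-fold difference. The 83 members called lower (blue) lie below the line along its whole length, the 41 called higher (red) above it, and ZNF497 sits at the bottom because it is listed at 0 FPKM in KD.

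The lean towards lower values depended in size on how the members were picked. The rule reads CON, and the same CON libraries enter the change. With the 201 coding ZNF genes at a mean of 2 FPKM or more over all 4 libraries, 74 fell and 47 rose, 36.8% and 23.4%, beside 31.0% and 31.2% of other coding genes. With the 195 at 2 FPKM or more in KD, 67 fell and 48 rose, and the median log2 change was 0.01, no longer below 0. Other coding genes chosen on KD had 29.9% lower and 32.4% higher and a median of 0.02. Members chosen on CON replicate 2 and compared from CON replicate 3 numbered 202, of which 57 fell and 27 rose, or 28.2% and 13.4%, beside 23.2% and 21.2% of other coding genes. With the roles of the control libraries exchanged, 60 fell and 30 rose of 203, or 29.6% and 14.8%, beside 22.9% and 21.9%. In each of these selections more members fell than rose. Without mitochondrially encoded genes in the totals, 74 of the 204 fell and 48 rose. Of all 11916 genes tested in that fit, 3208 fell and 3758 rose.

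At like levels the members were called lower more often, and higher less often or about as often, than other coding genes. From 2 to 4 FPKM in CON, 29.2% of 89 members fell against 18.4% of 1465 other genes. From 4 to 8 FPKM, 47.0% of 66 members fell against 22.8%, and 16.7% rose against 33.7%. From 8 to 16 FPKM, 44.4% of 36 members fell against 33.1%, while 30.6% and 29.9% rose. At 16 FPKM or more, 10 of 13 members fell, or 76.9% against 47.8%, and ZNF318 alone rose. With levels set by all 4 libraries the contrast narrowed: 29.9% against 21.1%, 40.3% against 24.7%, 38.7% against 30.7% and 56.3% against 42.6% were lower. On that scale 5 of the 16 members at 16 FPKM or more rose, or 31.3% against 31.9% of other genes. No test between the lists was made. Replicate scatter in CON was a median coefficient of variation of 4.14% for members and 2.77% for other genes, and at 4 to 8 FPKM 4.05% and 3.57%.

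**Figure D2:**
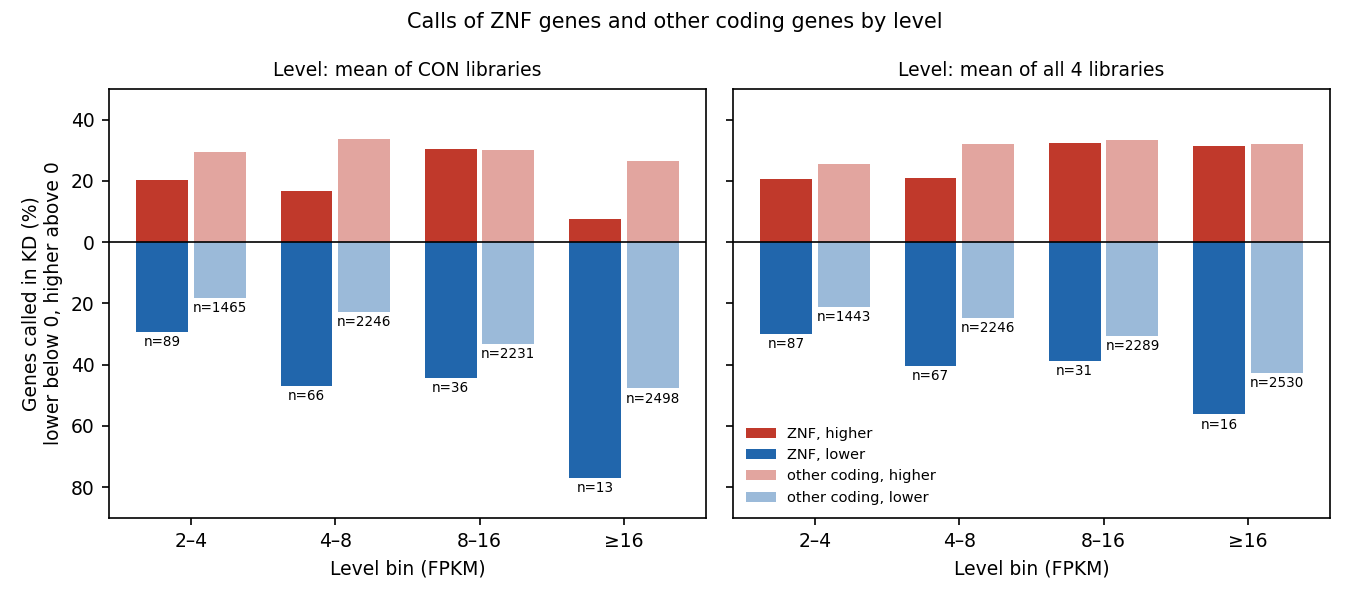
Percentage of genes called higher (red, above 0) and lower (blue, below 0) in KD within 4 level bins, for ZNF genes (dark bars) and other coding genes (pale bars); n is the number of genes in each bar. The left panel bins by the CON mean and the right panel by the mean of all 4 libraries: dark blue bars are longer than pale blue ones in every bin of both panels, by less on the right.

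ZNF608 rose most on the fitted scale. It was at 6.95 and 6.89 FPKM in CON and 13.3 and 13.5 FPKM in KD (log2 change 0.86, SE 0.042, limma adjusted p = 0.000225). The gene lies at chr5:124636913-124748807 on the minus strand (GRCh38, GENCODE 29). ZNF92, a KRAB zinc finger gene at chr7:65373799-65401135, was at 15.6 and 15.4 FPKM in CON and 29.1 and 28 FPKM in KD (log2 change 0.84, SE 0.037, limma adjusted p = 0.000191). ZNF160, another KRAB gene, was at 3.96 and 3.59 FPKM in CON and 7.06 and 6.69 FPKM in KD (log2 change 0.72, SE 0.067, limma adjusted p = 0.00116). In all 3 genes the KD libraries stood above the CON libraries by far more than the libraries of a group differed.

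The next rises were smaller. ZNF267, a KRAB gene on chromosome 16, was at 3.25 and 3.38 FPKM in CON and 5.83 and 5.59 FPKM in KD (log2 change 0.64, SE 0.059, limma adjusted p = 0.00117). ZNF394, which has a SCAN and a KRAB domain, was at 2.90 and 3.43 FPKM in CON and 4.87 and 5.73 FPKM in KD (log2 change 0.60, SE 0.103, limma adjusted p = 0.00731), with the widest scatter of the 8. ZNF644, a partner of the histone methyltransferases G9a and GLP, was at 6.07 and 6.21 FPKM in CON and 9.27 and 9.97 FPKM in KD (log2 change 0.57, SE 0.055, limma adjusted p = 0.00127). ZNF318, which in mouse B cells is needed for surface IgD, had the highest level of these. It was at 31.2 and 32.7 FPKM in CON and 48.3 and 46.8 FPKM in KD (log2 change 0.56, SE 0.037, limma adjusted p = 0.000462), and its exons overlap those of CRIP3 on the same strand. ZNF148, which binds GC-rich promoters, was at 3.34 and 3.43 FPKM in CON and 5.15 and 5.55 FPKM in KD (log2 change 0.53, SE 0.063, limma adjusted p = 0.00232).

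ZNF497 had the largest fitted fall. It was at 3.01 and 3.80 FPKM in the CON libraries and was listed at 0 in both KD libraries. Among 8541 coding genes at 2 FPKM or more in both CON libraries it was the only 1 listed at 0 in both KD libraries. No fold is given, since an exact 0 in a table of FPKM can be a failed estimate. Its exons, at chr19:58354357-58362848 on the minus strand, overlap AC012313.3 on the same strand and 3 genes on the other strand, among them A1BG-AS1. Without it 82 of 203 members fell and 41 rose.

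The other large falls were measured above 0 in every library. ZNF594 was at 4.10 and 3.86 FPKM in CON and 1.02 and 1.16 FPKM in KD, with a mean FPKM 3.66-fold lower (log2 change -1.25, SE 0.082, limma adjusted p = 0.000459). ZNF691 was at 6.03 and 6.24 FPKM in CON and 2.25 and 2.26 FPKM in KD, 2.72-fold lower (log2 change -1.13, SE 0.060, limma adjusted p = 0.000280). ZNF572 was at 2.86 and 2.53 FPKM in CON and 0.806 and 0.754 FPKM in KD, 3.46-fold lower (log2 change -1.05, SE 0.094, limma adjusted p = 0.00104). ZNF785 was at 3.35 and 3.37 FPKM in CON and 1.26 and 1.16 FPKM in KD, 2.77-fold lower (log2 change -0.98, SE 0.077, limma adjusted p = 0.000743). In these 4 genes the libraries of a group lay close together and the groups stood far apart.

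ZNF117, ZNF524 and ZNF786 fell to about the same degree as each other, by 1.98-fold to 2.0-fold in the mean. ZNF117 was at 10.6 and 12.4 FPKM in CON and 5.90 and 5.65 FPKM in KD (log2 change -0.88, SE 0.082, limma adjusted p = 0.00116). It shares exons on the same strand with ERV3-1, the envelope gene of an endogenous retrovirus, which was itself lower by 0.77 on the log2 scale, so the reads of these 2 genes cannot be separated here. ZNF524, a protein that binds telomeric repeats, was at 7.36 and 7.90 FPKM in CON and 3.58 and 4.13 FPKM in KD (log2 change -0.83, SE 0.079, limma adjusted p = 0.00124) and has FIZ1 on the opposite strand. ZNF786, a KRAB gene, was at 5.87 and 6.77 FPKM in CON and 3.36 and 3.0 FPKM in KD (log2 change -0.81, SE 0.088, limma adjusted p = 0.00183). The 8 rises and 8 falls kept direction and call in every alternative fit that tested them. They were picked as the largest changes among called members whose groups do not overlap. The alternatives reuse the same libraries, so this is a description.

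**Figure D3:**
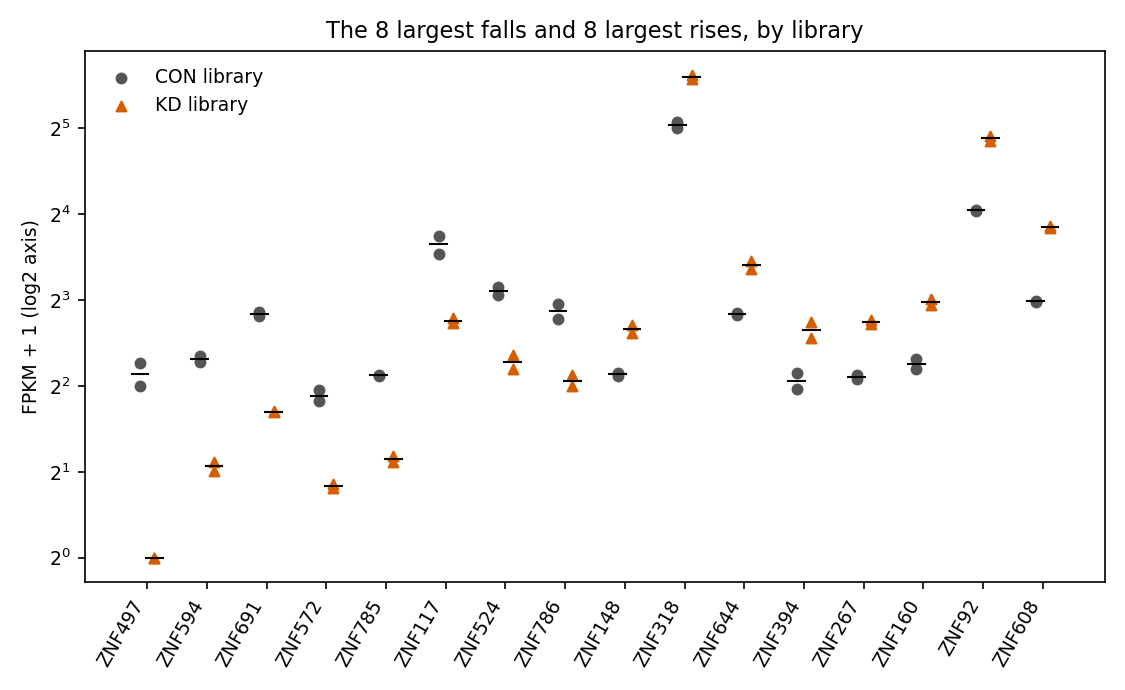
FPKM + 1 on a log2 axis in each CON library (circles) and KD library (triangles) for the 8 largest fitted falls (left) and rises (right), with bars at the group means of 2 libraries. The 16 were picked among called members whose groups do not overlap, so separate groups follow from that choice. Levels in KD run from ZNF497 at 0 FPKM to ZNF318 at 46.8 and 48.3 FPKM.

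Promoter windows are shown for the 2 largest falls above 0 and the 2 largest rises by fitted log2 change, as examples of genes that moved in opposite directions. By the ratio of mean FPKM, ZNF572 and ZNF785 fell further than ZNF691. They run from 250 bases before to 50 after the start of transcription, 5′ to 3′ on the gene's strand (RefSeq, GRCh38.p14). Capitals mark matches, on either strand, to one of 7 motifs searched: AP-1 (TGAGTCA), the heat shock core (GAANNTTC), the E-box (CACGTG), the NRF1 core (TGCGCA), the ETS core (CCGGAAG), CRE (TGACGTCA) and the TATA box (TATAAA). No one of these motifs contains another.
ZNF594 promoter, chr17:5191819-5192118, minus strand: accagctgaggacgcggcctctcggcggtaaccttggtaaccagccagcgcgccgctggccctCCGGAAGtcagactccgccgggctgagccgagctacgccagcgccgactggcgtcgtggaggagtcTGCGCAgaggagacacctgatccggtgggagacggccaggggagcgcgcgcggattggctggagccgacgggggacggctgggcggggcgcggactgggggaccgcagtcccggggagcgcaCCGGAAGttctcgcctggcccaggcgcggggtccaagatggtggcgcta
ZNF691 promoter, chr1:42846363-42846662, plus strand: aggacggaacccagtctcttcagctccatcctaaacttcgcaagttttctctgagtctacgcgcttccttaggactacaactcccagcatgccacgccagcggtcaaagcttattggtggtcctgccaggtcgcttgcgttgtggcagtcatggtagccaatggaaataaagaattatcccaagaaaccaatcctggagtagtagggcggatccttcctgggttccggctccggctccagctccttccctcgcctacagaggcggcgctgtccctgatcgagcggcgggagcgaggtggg
ZNF608 promoter, chr5:124748775-124749074, minus strand: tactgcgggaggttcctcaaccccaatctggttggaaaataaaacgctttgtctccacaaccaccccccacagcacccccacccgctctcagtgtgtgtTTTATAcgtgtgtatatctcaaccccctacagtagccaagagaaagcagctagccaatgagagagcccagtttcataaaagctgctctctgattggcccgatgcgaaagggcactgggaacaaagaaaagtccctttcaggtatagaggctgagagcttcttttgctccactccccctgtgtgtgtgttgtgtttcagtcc
ZNF92 promoter, chr7:65373605-65373904, plus strand: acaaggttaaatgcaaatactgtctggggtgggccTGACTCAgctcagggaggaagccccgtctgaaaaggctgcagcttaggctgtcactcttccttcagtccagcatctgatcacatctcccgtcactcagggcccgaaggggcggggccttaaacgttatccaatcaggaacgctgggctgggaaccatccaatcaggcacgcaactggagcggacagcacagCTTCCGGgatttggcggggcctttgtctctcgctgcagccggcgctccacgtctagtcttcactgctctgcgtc
The window of ZNF594 is 72.7% GC with 37 CpG and holds the ETS core at 2 places and the NRF1 core once. That of ZNF691 is 57.0% GC with 18 CpG and holds none of the 7 motifs. ZNF608 has a window of 50.7% GC with 6 CpG and a TATA match, and ZNF92 one of 58.3% GC with 15 CpG, an AP-1 match and an ETS core.

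A window was found for 177 of the 204 members and 7066 other expressed coding genes. The ETS core was found most often: 73 member windows held it, or 41.2%, against 22.6% of the other expressed coding genes and 10.3% of all 35116 windows in the table. Members that rose held it in 31.4% of 35 windows, those that fell in 38.9% of 72 and those not called in 48.6% of 70. The NRF1 core was in 15.8% of member windows and 15.6% of other expressed genes, against 8.24% of all windows. It was in 1 of 35 windows of members that rose and in 16 of 72 of those that fell, or 22.2%, and in 15.7% of those not called. The remaining motifs were in few windows. The AP-1 motif was in 3.39% of member windows, and the heat shock and E-box motifs were each in 6.21%. Other expressed genes held these in 2.31%, 4.36% and 10.8%, and all windows in 4.95%, 6.77% and 7.26%. CRE was in 5.65% and TATA in 3.95% of member windows, 3.54% and 4.78% of other expressed genes, and 1.85% and 11.5% of all windows. The median window had 24 CpG in members, 20 in those that rose and 25 in those that fell, against 27 in other expressed genes. These are matches of letters, not sites.

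The most abundant members fell, with ZNF318 the exception among the first 5. ZNF581 had the highest level, at 79.9 and 83 FPKM in CON and 57.7 and 62.5 FPKM in KD (log2 change -0.43, SE 0.046, limma adjusted p = 0.00169), and shares exons on the same strand with ZNF580 and CCDC106. ZNF428 was at 51.2 and 52.3 FPKM in CON and 28.5 and 32 FPKM in KD (log2 change -0.76, SE 0.060, limma adjusted p = 0.000754), with SRRM5 on the opposite strand. ZNF768, which binds repeats in the genome and has been linked to senescence, was at 41.2 and 42 FPKM in CON and 28.2 and 28.7 FPKM in KD (log2 change -0.53, SE 0.030, limma adjusted p = 0.000333). ZNF664 was at 39.1 and 37.6 FPKM in CON and 28.6 and 27.2 FPKM in KD (log2 change -0.44, SE 0.040, limma adjusted p = 0.00109). For all 4 the groups were apart by several times the difference within them.

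Of the 29 members listed for a known role 12 fell and 7 rose, or 41.4% and 24.1%, near the 40.7% and 20.1% of all members. The first of them are activators and DNA-binding factors. ZNF143, which activates promoters of housekeeping and small RNA genes, was at 3.59 and 4.05 FPKM in CON and 4.27 and 4.28 FPKM in KD and did not pass (adjusted p = 0.176 in limma). Its paralog ZNF76 fell, at 7.67 and 7.09 FPKM in CON and 5.92 and 5.73 FPKM in KD (log2 change -0.30, SE 0.059, limma adjusted p = 0.0112), a call lost without CON replicate 2 (adjusted p = 0.0680 in limma). ZNF384, a fusion partner in acute B-cell leukaemia, fell from a mean of 20.9 to 15.6 FPKM (log2 change -0.40, SE 0.056, limma adjusted p = 0.00377). ZNF281, a repressor related to ZNF148, fell from 3.54 to 2.26 FPKM (log2 change -0.48, SE 0.086, limma adjusted p = 0.00837), lost without CON replicate 2 (adjusted p = 0.0520 in limma). ZNF24, a SCAN protein, fell from 12.6 to 9.39 FPKM (log2 change -0.39, SE 0.041, limma adjusted p = 0.00167). ZNF655, which interacts with VAV1, a signalling protein of blood cells, fell, at 12.9 and 14.1 FPKM in CON and 10.1 and 9.99 FPKM in KD (log2 change -0.39, SE 0.055, limma adjusted p = 0.00365). ZNF706, described as a brake on KLF4 in mouse embryonic stem cells, fell from 8.40 to 6.06 FPKM (log2 change -0.41, SE 0.050, limma adjusted p = 0.00247). ZNF263 was at 3.56 and 3.87 FPKM in CON and 3.87 and 4.76 FPKM in KD and did not pass.

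Chromatin partners moved in different directions. ZNF217, a breast cancer oncoprotein found with the CoREST and LSD1 repressors, was at 11.8 and 11.8 FPKM in CON and 17.2 and 17 FPKM in KD, with both KD libraries well above CON (log2 change 0.50, SE 0.037, limma adjusted p = 0.000646). The 3 zinc finger proteins of the Z3 complex, which bind ZMYND8, did not move as one. ZNF592 fell from 14.7 to 11.1 FPKM (log2 change -0.38, SE 0.042, limma adjusted p = 0.00188). ZNF532 was called lower, at 6.22 and 6.02 FPKM in CON and 5.16 and 5.42 FPKM in KD (log2 change -0.18, SE 0.055, limma adjusted p = 0.0420), a call lost in 9 of 14 alternatives. ZNF687 was at 6.70 and 6.51 FPKM in CON and 6.37 and 6.28 FPKM in KD and did not pass. ZNF827, which recruits the NuRD complex to telomeres, was at 1.98 and 2.14 FPKM in CON and 1.21 and 1.29 FPKM in KD and was called lower (log2 change -0.44, SE 0.087, limma adjusted p = 0.0108). That call did not hold without CON replicate 3 (adjusted p = 0.0686 in limma) or with no filter on low values (adjusted p = 0.0563 in limma). ZNF410, an activator of the NuRD gene CHD4, was at 6.09 and 6.47 FPKM in CON and 6.65 and 6.84 FPKM in KD and did not pass, and CHD4 itself was at 46.1 and 46.1 FPKM in CON and 46.1 and 46.4 FPKM in KD. ZNF335, which associates with an H3K4 methyltransferase complex, was at 6.86 and 7.26 FPKM in CON and 8.34 and 7.83 FPKM in KD, just short of the threshold (adjusted p = 0.0514 in limma), and passed it in 3 alternatives.

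Among the members listed as KRAB proteins that silence repeats or imprinted genes, ZNF93 alone passed. ZNF91, which represses SVA and LINE-1 elements, was at 3.07 and 3.02 FPKM in CON and 2.92 and 3.14 FPKM in KD, with overlapping groups. ZNF93, which represses older LINE-1 elements, rose: it was at 3.99 and 4.47 FPKM in CON and 5.82 and 6.15 FPKM in KD (log2 change 0.42, SE 0.071, limma adjusted p = 0.00673). ZNF445, which protects imprinted regions, was at 2.59 and 2.60 FPKM in CON and 2.46 and 2.69 FPKM in KD, again overlapping. ZNF274 and ZNF10, both KRAB genes, and ZNF292 were below the level threshold. The fit sees expression of the proteins' genes only, and levels of the elements were not analysed here.

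Ribosome and RNA factors were also divided. ZNF598, the ubiquitin ligase that marks collided ribosomes, was at 25.2 and 23.6 FPKM in CON and 21.6 and 21.2 FPKM in KD and was called lower (log2 change -0.18, SE 0.044, limma adjusted p = 0.0217), a call lost in 6 of 14 alternatives. ZNF622, whose yeast counterpart acts in maturation of the large ribosomal subunit, was at 16.7 and 15.3 FPKM in CON and 17.9 and 20.9 FPKM in KD. It passed narrowly (adjusted p = 0.0498 in limma) and was lost in 10 of 14 alternatives. ZNF593, with a yeast counterpart in the same process, was at 17.1 and 16.5 FPKM in CON and 18.1 and 13.6 FPKM in KD and did not pass, except without KD replicate 2, where it was lower (log2 change -0.28, adjusted p = 0.0175 in limma). ZNF207, which binds BUB3 at the spindle, fell from 14.6 to 11.8 FPKM (log2 change -0.29, SE 0.039, limma adjusted p = 0.00359). ZNF830, which takes part in pre-mRNA splicing, fell further, at 5.11 and 4.57 FPKM in CON and 2.32 and 2.83 FPKM in KD (log2 change -0.71, SE 0.099, limma adjusted p = 0.00373). ZNF326, of a complex that couples splicing to transcription, rose from 3.06 to 4.51 FPKM (log2 change 0.44, SE 0.068, limma adjusted p = 0.00492). ZNF451, a SUMO ligase, rose from 2.40 to 3.81 FPKM (log2 change 0.50, SE 0.077, limma adjusted p = 0.00500). ZNF346, which binds double-stranded RNA, was at 4.90 and 5.11 FPKM in CON and 5.46 and 5.39 FPKM in KD, and ZNF638, which helps silence unintegrated retroviral DNA, was at 8.19 and 8.43 FPKM in CON and 9.18 and 9.19 FPKM in KD. Neither passed in the fit as reported, while ZNF638 passed in 2 alternatives of scaling.

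A Reactome entry on KRAB proteins and KAP1, deposited with the gene table, lists 104 members. Of these 39 fell and 20 rose (median log2 change -0.06). Of 97 members not listed, 43 fell and 20 rose (median -0.16). For 3 members the annotation was not used here. The entry is an imperfect guide to the domain: it does not list the KRAB genes ZNF91 and ZNF93, and it does list ZNF706, a small protein without the domain. The shares that fell were 37.5% of listed and 44.3% of unlisted members, and those that rose 19.2% and 20.6%.

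Some genes of the machinery that KRAB proteins use rose and others fell. Of 29 genes for KAP1, its partners and related heterochromatin proteins, 28 were tested, 8 rose and 6 fell (median log2 change -0.02). These are 28.6% and 21.4%, beside 27.6% higher, 31.1% lower and a median of -0.02 over all genes tested, so the share of rises and the median were near the background. TRIM28 was at 123 and 120.2 FPKM in CON and 139.7 and 138 FPKM in KD, 1.14-fold higher (log2 change 0.19, SE 0.023, limma adjusted p = 0.00242). SETDB1 was at 6.63 and 7.07 FPKM in CON and 7.03 and 6.71 FPKM in KD and did not pass. Of the HP1 genes CBX3 rose from 29.1 to 39.6 FPKM (log2 change 0.43, SE 0.032, limma adjusted p = 0.000629), CBX1 rose from 32.4 to 42.5 FPKM (log2 change 0.38, SE 0.028, limma adjusted p = 0.000646) and CBX5 fell from 35.8 to 28.4 FPKM (log2 change -0.32, SE 0.039, limma adjusted p = 0.00238). The H3K9 methyltransferase SUV39H1 had the largest fitted fall of the list, at 15.1 and 13.9 FPKM in CON and 9.79 and 8.27 FPKM in KD (log2 change -0.63, SE 0.088, limma adjusted p = 0.00376). Without mitochondrially encoded genes in the totals 3 of the list fell, beside 3208 of all 11916 genes tested.

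Members that fell and members that rose were spread unevenly along the chromosomes. Chromosome 19 held 81 of the 204, or 39.7%, chromosome 7 held 23 and chromosome 16 held 20. On chromosome 19, 29 of the 81 members fell and 18 rose, 35.8% and 22.2%, against 43.9% and 18.7% of the 123 elsewhere. The other expressed coding genes of chromosome 19 had 36% lower and 25.4% higher. Neighbours at most 1 Mb apart were then joined into blocks of 5 or more, which gave 9 blocks with 94 members. These blocks, and the genes named from them, were looked at after their values were seen, so their counts are a description.

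The largest block, at 55.5 to 58.5 Mb near the end of the long arm of chromosome 19, held 25 members. Of these 19 fell and 0 rose (median log2 change -0.43). The 6 that did not pass were ZNF580, ZNF444, ZNF543, ZNF551, ZNF586 and ZNF324. The 11 other expressed coding genes between them had 7 lower and 0 higher and a median of -0.28. They include ZNF324B, whose name ends in a letter and so lies outside the member rule. Of the block's 13 members in the Reactome entry on KRAB proteins 9 fell, and of the 12 not listed 10 fell. ZNF587, a KRAB gene, was at 4.37 and 4.29 FPKM in CON and 2.47 and 2.01 FPKM in KD (log2 change -0.72, SE 0.091, limma adjusted p = 0.00276), and ZNF865, with no KRAB entry, was at 11.1 and 9.98 FPKM in CON and 6.27 and 6.69 FPKM in KD (log2 change -0.63, SE 0.069, limma adjusted p = 0.00186). With neighbours at most 0.5 Mb apart the block had 15 members, of which 11 fell and 0 rose.

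A block of 11 members at 30.4 to 31.9 Mb of chromosome 16 also held mostly falls. Here 9 fell, ZNF668 did not pass, and ZNF267, the last in order, was among the largest rises. The median was -0.53, against -0.01 for the 20 other expressed coding genes in the same interval, of which 6 fell and 6 rose. ZNF688 was at 6.97 and 5.39 FPKM in CON and 3.19 and 3.42 FPKM in KD (log2 change -0.73, SE 0.118, limma adjusted p = 0.00594) and ZNF764 at 6.94 and 6.44 FPKM in CON and 4.22 and 3.78 FPKM in KD (log2 change -0.62, SE 0.072, limma adjusted p = 0.00218), and both have overlapping genes, on the opposite strand for ZNF688 and on the same strand for ZNF764. On chromosome 7 at 149.1 to 150.4 Mb, 4 of 8 members fell and 1, ZNF212, rose. The 4 other expressed coding genes there had 3 lower and 1 higher. Their median was -0.36, beside -0.22 for the members. At 64.3 to 65.4 Mb of the same chromosome, 3 of 7 members fell, ZNF117 among them, and ZNF92 rose.

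Other chromosome 19 blocks held fewer falls. Just before the block of falls, at 52 to 53.5 Mb, 5 of 13 members rose, or 38.5%, and ZNF83 alone fell (median 0.17). Other expressed coding genes of 40 to 45% GC, where the block's median lies, had 35.1% higher and 25.5% lower. The share that rose was near theirs. The 1 other expressed coding gene in the interval, PPP2R1A, fell (log2 change -0.34). ZNF160 led the rises of this block, followed by ZNF468 at 3.18 and 2.86 FPKM in CON and 4.70 and 4.86 FPKM in KD (log2 change 0.53, SE 0.070, limma adjusted p = 0.00326). Without one library the number that rose there was 2 to 5. At 19.7 to 21.9 Mb, where ZNF91-like KRAB genes multiplied in primates, 5 of 13 rose and 2 fell (median 0.11). At 23.1 to 24.1 Mb 2 of 5 rose and 1 fell. The rises are 38.5% and 40% of the members of these 2 blocks, whose median GC was 37.5% and 36.3%. Other expressed coding genes under 40% GC had 42.7% higher and 17.5% lower, so the shares that rose were near theirs. The blocks at 8.5 to 9.6 Mb and at 43.6 to 45.1 Mb had 2 and 1 of 6 higher and 2 and 1 lower. Many genes in such blocks are recent copies of one another, and reads shared between copies may have been split between them.

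**Figure D4:**
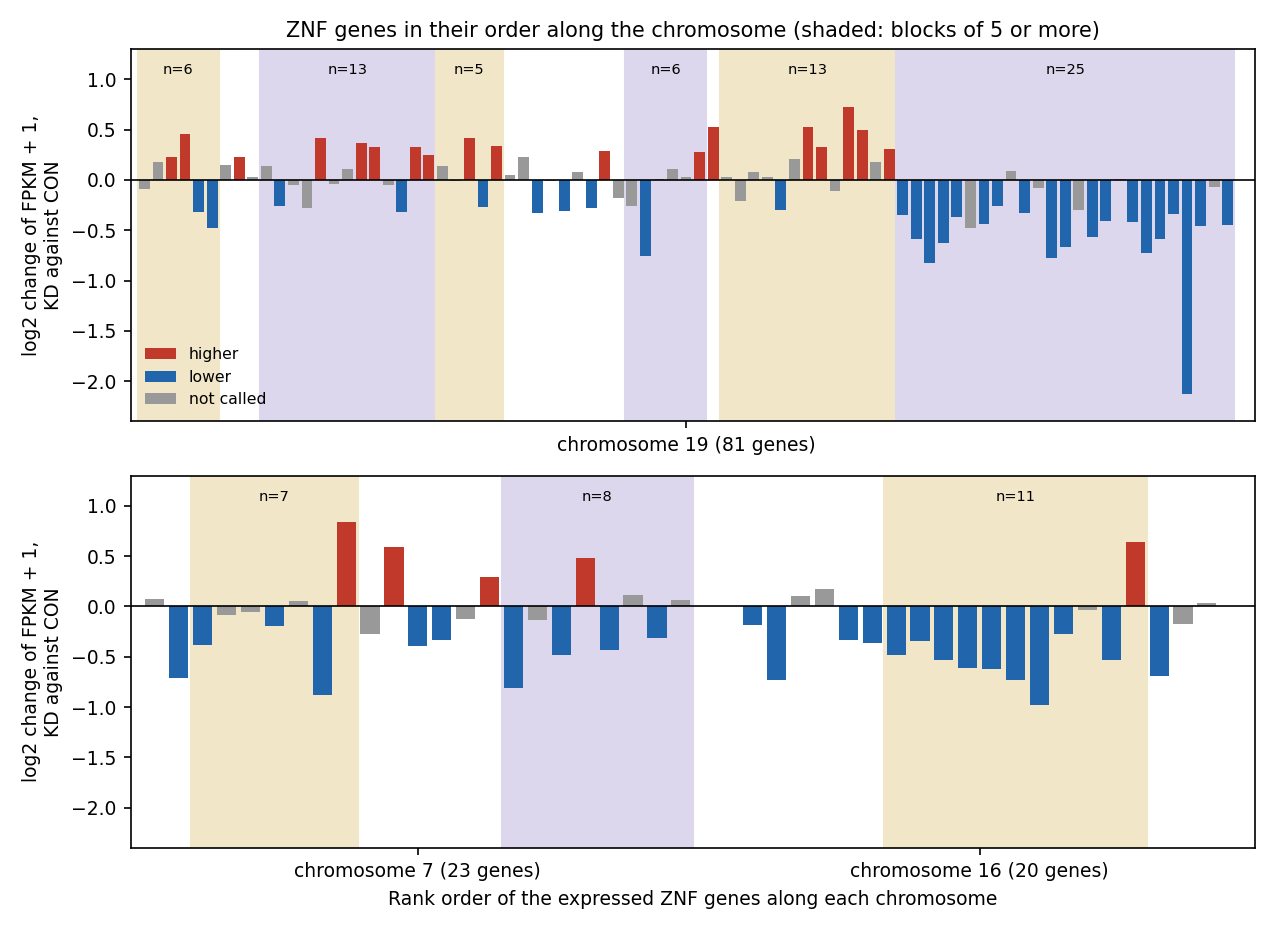
Fitted log2 change (y axis) of each member on chromosome 19 (top) and on chromosomes 7 and 16 (bottom), in rank order along the chromosome and not to scale; shading in alternating colours marks blocks of 5 or more members at most 1 Mb apart, with n members. The last block of chromosome 19 has 19 bars called lower (blue) and none called higher, next to a block of 13 in which 5 are called higher (red).

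GC content of the transcript went along with the direction of change. Among 54 members whose longest coding transcript was 55% GC or more, 31 fell and 4 rose (median log2 change -0.32). The 2678 other expressed coding genes of that GC had 38.1% lower and 25.0% higher and a median of -0.07. Among 42 members under 40% GC, 15 rose and 9 fell (median 0.09), and of other genes 42.7% rose and 17.5% fell (median 0.12). Across members Spearman's rho of GC with the log2 change was -0.30 (n = 204), and across 8407 other genes -0.16. Genes are not independent replicates, and all share the same 4 libraries, so no p is given.

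The members of high GC stood further from other genes than those of low GC did. At 4 to 8 FPKM in CON, 14 of 26 members of 55% GC or more fell, or 53.8%, against 25.5% of other genes of like GC and level. At 8 to 16 FPKM 7 of 10 fell, or 70.0% against 37.7%. GC and position overlap: the median transcript GC was 58.7% in the end block of chromosome 19, 58.6% in the chromosome 16 block and 40.6% in the block at 52 to 53.5 Mb. Of the 11 members of the end block under 50% GC, 8 fell and 0 rose (median log2 change -0.41). Their median level was 2.27 FPKM in CON and 1.59 FPKM in KD, near the 2 FPKM threshold that chose them on CON. That choice favours a fall, so these counts are a description. The part of GC content in these results was not tested.

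**Figure D5:**
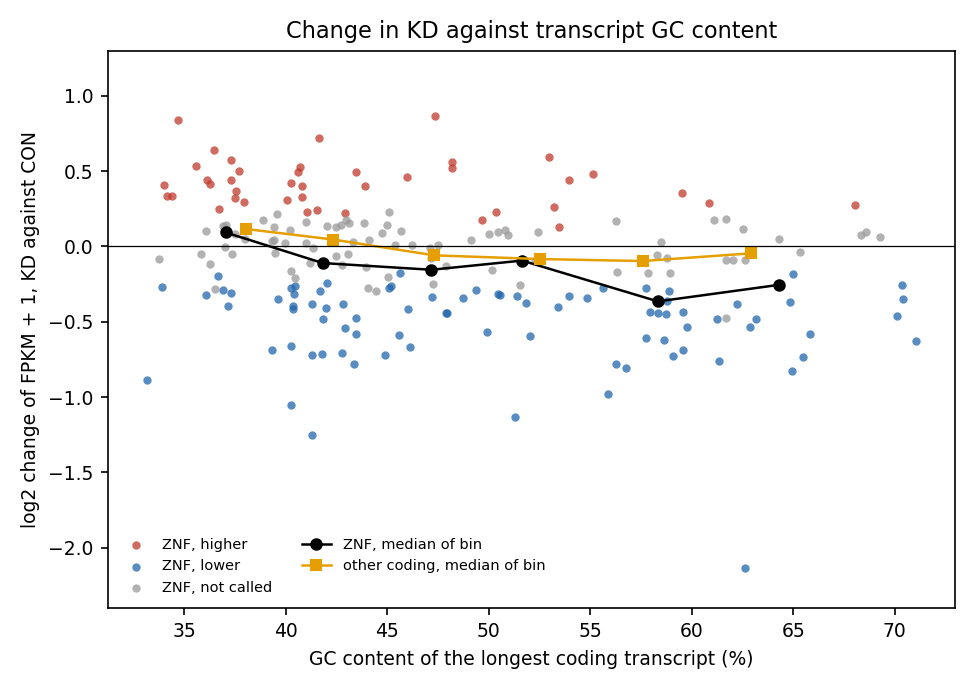
Fitted log2 change in KD (y axis) against the GC content of the longest coding transcript (x axis) for the 204 members, coloured by call, with medians of 6 GC bins for members (black) and other coding genes (orange). Under 45% GC lie 99 members, among them 27 of the 41 called higher and 31 of the 83 called lower. These are 27.3% and 31.3% of the 99, beside 27.6% higher and 31.1% lower over all genes tested. The black medians lie below the orange ones in all 6 bins.

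Related name families of C2H2 genes were chosen by the same level rule. Of 46 ZBTB, ZSCAN, ZKSCAN, ZFP and PRDM genes, 15 fell and 5 rose (median log2 change -0.16). The share that fell, 32.6%, was near the 32.1% of other expressed coding genes, and the share that rose was 10.9% beside 29.8%. ZBTB had 9 of 24 lower and 3 higher, ZSCAN 3 of 8 lower and 0 higher, ZKSCAN 1 of 4 lower and 0 higher, ZFP 1 of 7 each way and PRDM 1 of 3 each way. Of 99 members whose exons overlap no other gene on either strand, 40 fell and 24 rose (median -0.08). In the authors' deposited table, a q-value under 0.05 stands beside 135 of the 204 members, and 8 are marked significant, all of them lower: ZNF594, ZNF785, ZNF691, ZNF572, ZNF248, ZNF497, ZNF749 and ZNF17. The same counts over other genes were not made here, so these cannot set the members apart from other genes.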

How the data were processed

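Poly(A) RNA was sequenced from 6 samples, 3 CON and 3 KD, after second strands were marked with dUTP, per the labels' protocols. Tools named in the submitters' processing notes are HISAT2, StringTie, fastp and edgeR, with GRCh38 as the build. Annotation release and strand setting: not given in the sources used here, and so overlapping genes are uncertain. Values are FPKM per gene, per the file headers. The authors deposited beside them their own comparison, as a linear fold change (ratio), a log2 value, a p-value and the matching q-value. No count model was fitted, since FPKM are not counts. Depth is unknown, because steps of whole reads were not seen in low values (at most 9 of 6295 genes at the commonest ratio of 2 libraries).

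Replicate 1 equalled the mean of replicates 2 and 3 divided by 1.1 in CON (29488 of 29489 genes) and by 1.2 in KD (all 29489), within a relative tolerance of 1e-09, and was left out. The 11916 genes with at least 1 FPKM in 2 or more of the 4 libraries were fitted as log2(FPKM + 1) with limma 3.58.1 (R 4.3.3), a mean-variance trend and a term for group alone, two-sided, adjusted by Benjamini-Hochberg at 0.05. Residual degrees of freedom were 2 and prior ones 2.85. All 204 members passed the filter. A change on this scale understates that of low genes. The labels do not say that replicates are separate cultures, so p-values measure the spread between these libraries, which may be technical. The fit was tested on simulated data in which far fewer genes changed than were called here. That test cannot measure the error of the calls in these data. GC content and position are from GENCODE 29 and promoters from RefSeq. Members, lists and alternatives were chosen with earlier results of these data known. Named members are the 8 largest rises and 8 largest falls called with groups that do not overlap, the 5 highest in CON, 3 genes on each side of the threshold and a list with known roles. Genes named for their position, for their overlap or from the authors' table were chosen after their values were seen. Domains were to be read from proteins, which were not used here, so the Reactome entry stands in.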

Additional observations from a re-analysis of the deposited data

How the results depend on the processing

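Calls were recomputed with other pseudocounts, filters, scalings, member rules and libraries. Of the comparisons above, 319 recomputed values kept within 1.5 times a count or within the spread of a value, and 68 moved. More members fell than rose in every fit, and all genes tested leaned the same way in most fits. Of all genes 3701 fell and 3285 rose in the fit as reported, and 2847 and 2612 with no filter on low values. They leaned the other way with median-ratio scaling, at 3474 and 3499, and without mitochondrially encoded genes in the totals, at 3208 and 3758. Fewer of all genes were called in each fit without one library, so smaller member counts there do not set the members apart. Without one library 58 to 69 members fell and 27 to 35 rose, and the median log2 change was -0.12 to -0.10. Over the same fits chromosome 19 had 16 to 23 lower and 10 to 14 higher, the Reactome group 13 to 19 higher and the unlisted group 11 to 15 higher. Members of 55% GC or more had 2 to 4 higher, those under 40% GC 4 to 7 lower, the block at 52 Mb 2 to 5 higher and 0 to 1 lower, and the KAP1 list 3 to 5 lower.

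With no filter on low values 54 members fell, 23 of them in the Reactome group, with 12 of the unlisted higher, 16 lower and 11 higher on chromosome 19, 2 higher at 55% GC or more, 4 lower under 40% GC and 2 higher in the block at 52 Mb. A mean of at least 5 FPKM tests fewer genes: 40 fell and 23 rose. Of these, the Reactome group had 11 and 8, chromosome 19 had 8 and 7, and other chromosomes 32 lower. Members of high GC had 20 lower and of low GC 4 lower and 4 higher. The chromosome 16 block had 5 lower and 0 higher, the block at 52 Mb 1 higher and that at 55.5 Mb 6 lower. A member threshold of 5 FPKM gave 47 of 92 lower and 20 higher. These are 51.1% and 21.7%, beside 36.5% and 29.5% of other coding genes at that threshold. The members then had a median of -0.19, an interquartile range of 0.57 and a summed ratio of 0.894. A threshold of 1 FPKM gave an interquartile range of 0.49 and a ratio of 0.920. Choosing members on KD gave a median of 0.0067 and a ratio of 0.936, on all 4 libraries -0.049 and 0.927, and on CON replicate 2 alone 27 higher.

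All 6 deposited columns gave a median of -0.13, a ratio of 0.887 and 4 of the KAP1 list higher. Replicate 1 is the mean of the other columns divided by 1.1 in CON and 1.2 in KD. This fit therefore adds no data and lowers KD against CON by construction. The median over all genes tested went from -0.022 to -0.055. Median-ratio scaling gave a median of -0.071 for the members and a ratio of 0.927. Totals without mitochondrially encoded genes gave -0.045 and 0.947, with 3 of the KAP1 list lower. Pseudocounts of 0.1 and 0.5 gave interquartile ranges of 0.63 and 0.57. At 50% GC or more 9 members rose, and at 60% 2 rose and 15 fell. Joining neighbours within 0.5 Mb left 11 lower in the end block of chromosome 19 and 0 higher in the chromosome 16 block. The last 3 alternatives and the totals without mitochondrial genes were chosen after seeing the data.

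The sign of 4 genes near 0 turned. None of them passed in the fit as reported, and ZNF593 passed without KD replicate 2 alone. ZNF91 was 0.013 with median-ratio scaling, 0.011 with quantile normalization and 0.037 without mitochondrial genes, and -0.045 to 0.032 without one library. ZNF445 was 0.0091, 0.018 and 0.032 in the same 3 fits and -0.056 to 0.037 without one library. ZNF202 ranged from -0.015 to 0.18 and ZNF593 from -0.28 to 0.10 without one library. The causes were not tested.

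The labels do not say that equal replicate numbers mark a shared culture, and with 2 pairs their deviations correlated at 0.00473 across genes. With the replicate number as a block 75 members fell and 37 rose. Calls over all genes numbered 6582 in place of 6986, with 3514 lower and 3068 higher.

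A fit of 2 libraries a group leans on a spread shared across genes. Depth is unknown, so the precision of members near 2 FPKM cannot be stated beyond the replicate spread.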
